A study of Homo sapiens with 8 samples.

Results

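The Iroquois homeobox genes are 6 transcription factor genes of the TALE class, arranged in 2 clusters of 3. IRX4, IRX2 and IRX1 lie on chromosome 5 and IRX3, IRX5 and IRX6 on chromosome 16. Accessible regions around them were taken from 8 ATAC-seq peak lists of the human embryonic stem cell line RUES2, as every peak from 100 kb before the first to 100 kb after the last gene of each cluster, merged over the lists. The windows held 256 regions on chromosome 5 and 136 on chromosome 16, 392 of 285853 merged regions on chromosomes 1 to 22 and X. The chromosome 5 regions are numbered A1 to A256 and those of chromosome 16 B1 to B136, in order of position.

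ATAC-seq uses the Tn5 transposase to insert sequencing adapters into open DNA. Cells were collected as embryonic stem cells on day 0 (hESC), as mesoderm on day 2 (MES), as cardiac progenitors on day 5 (CP) and as cardiomyocytes on day 14 (CM). Each of the 4 stages had 2 libraries. All were cultured from 1 line on laminin. The day 0 cells had already received CHIR-99021, a Wnt pathway activator, in E8 medium on the preceding day. MES cells had then been in RPMI with albumin, ascorbic acid and more CHIR-99021, CP cells had also been given the Wnt inhibitor Xav-939 from day 3, and CM cells had finished in RPMI with B27. No sort or purification of the cells is given for these libraries, so cell types other than the named one may contribute to each list. The study's methods limited CM samples to those in which most cells stained for cardiac troponin T. The series text calls the replicates biological.

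IRX proteins bind DNA through a homeodomain and act in the patterning of the heart, limb, nervous system and other tissues. In the heart, IRX4 is a marker of ventricular muscle, IRX3 is known from the ventricular conduction system, and IRX5 from the gradient of repolarization across the ventricular wall. Their clusters lie in wide gene-poor stretches rich in conserved non-coding sequence, where enhancers can be far from the promoter they act on. In GENCODE 44, IRX4 (ENSG00000113430.10) lies at chr5:1877413-1887236 on the minus strand, IRX2 (ENSG00000170561.13) at chr5:2745845-2751677 on the minus strand and IRX1 (ENSG00000170549.4) at chr5:3595832-3601403 on the plus strand. IRX3 (ENSG00000177508.12) lies at chr16:54283304-54286787 on the minus strand, and IRX5 (ENSG00000176842.16) and IRX6 (ENSG00000159387.8) at chr16:54930865-54934485 and chr16:55324203-55330756 on the plus strand. An accessible region is not by itself an enhancer, and no RNA was used here.

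The sequences below are the 200 bases around the strongest summit of regions on which the results turn, and 250 bases upstream of 3 IRX4 start sites. All are in GRCh38, and peak sequences are given on the plus strand. Capitals mark matches, on either strand, to one of 10 short motifs. The letters AGATAA stand for GATA factors, which act in mesoderm and heart. The letters AGGTGT stand for T-box factors such as those of mesoderm and the chambers. The letters CAAGTG are those of NKX factors of the cardiac lineage, and CATCTG is an E-box of the kind bound by HAND factors. The pluripotency factors of the POU and SOX families are represented by ATGCAAA and by the letters ACAATG. Wnt signalling acts through TCF/LEF factors, for which TCAAAG was searched. The TALE proteins themselves are covered by TGACAG for MEIS factors and by the palindrome ACANNTGT for IRX factors. The last was a loose pattern for the MEF2 motif of muscle genes, with fixed ends and any bases allowed in the middle. A match to it need not be a MEF2 site. Matches of different motifs may overlap or join. A13 is shown because its fold rose most among the IRX regions with a peak in every list, and it holds 1 TGACAG match, at chr5:1841248-1841447.
A13: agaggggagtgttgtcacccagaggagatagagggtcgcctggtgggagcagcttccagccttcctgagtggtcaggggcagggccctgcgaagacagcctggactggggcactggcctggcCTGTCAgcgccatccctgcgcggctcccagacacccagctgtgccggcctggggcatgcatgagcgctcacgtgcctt
A185, between IRX2 and IRX1 at chr5:3092817-3093016, had peaks at every stage after hESC and holds AGATAA and a match to the loose MEF2 pattern. The middle of that match holds G and C, and it was not taken as a MEF2 site.
A185: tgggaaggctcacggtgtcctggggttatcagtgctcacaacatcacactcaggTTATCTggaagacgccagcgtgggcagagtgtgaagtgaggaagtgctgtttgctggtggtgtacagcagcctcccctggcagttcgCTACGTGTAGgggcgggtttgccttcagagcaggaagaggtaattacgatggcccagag
B123 and B124, between IRX5 and IRX6 at chr16:55248604-55248803 and chr16:55255992-55256191, had peaks only in the 4 CP and CM lists. B124 holds AGATAA and TGACAG, and B123 holds both with CATCTG and ACAATG.
B123: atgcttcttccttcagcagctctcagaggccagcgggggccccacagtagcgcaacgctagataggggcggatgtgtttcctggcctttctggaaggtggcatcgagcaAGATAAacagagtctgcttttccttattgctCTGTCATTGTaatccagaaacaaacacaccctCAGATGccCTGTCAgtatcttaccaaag
B124: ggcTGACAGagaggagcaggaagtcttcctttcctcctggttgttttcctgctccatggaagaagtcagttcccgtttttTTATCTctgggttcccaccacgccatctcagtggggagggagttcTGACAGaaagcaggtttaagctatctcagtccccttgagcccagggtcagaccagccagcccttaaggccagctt
A102, at chr5:2439118-2439317, had peaks in both MES lists and 1 CP list, and holds AGGTGT and CAAGTG.
A102: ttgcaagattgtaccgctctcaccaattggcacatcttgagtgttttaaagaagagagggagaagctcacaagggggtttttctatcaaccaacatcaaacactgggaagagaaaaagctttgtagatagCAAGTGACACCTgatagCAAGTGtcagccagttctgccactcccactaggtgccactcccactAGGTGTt
B64, at chr16:54651558-54651757, was lost from hESC to CM and holds ATGCAAA as well as ACAATG and CATCTG.
B64: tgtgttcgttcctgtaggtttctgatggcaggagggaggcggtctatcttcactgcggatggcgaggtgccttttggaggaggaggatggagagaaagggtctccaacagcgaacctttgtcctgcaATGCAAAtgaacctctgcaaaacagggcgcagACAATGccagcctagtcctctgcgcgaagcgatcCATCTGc
The 3 IRX4 promoters, on the minus strand, are from RefSeq (GRCh38.p14). The outer one covers chr5:1887180-1887429, the middle one chr5:1886946-1887195 and the inner one chr5:1882926-1883175. The CM peak of replicate 1 overlaps the outer one and that of replicate 2 the middle one. RefSeq promoter sequences were matched for 3 of the 6 genes, IRX1, IRX2 and IRX4.
IRX4 outer: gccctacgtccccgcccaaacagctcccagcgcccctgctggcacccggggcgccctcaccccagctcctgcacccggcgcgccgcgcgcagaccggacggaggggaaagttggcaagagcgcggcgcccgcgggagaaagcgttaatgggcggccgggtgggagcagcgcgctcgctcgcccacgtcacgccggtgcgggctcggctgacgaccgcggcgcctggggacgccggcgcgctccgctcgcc
IRX4 middle: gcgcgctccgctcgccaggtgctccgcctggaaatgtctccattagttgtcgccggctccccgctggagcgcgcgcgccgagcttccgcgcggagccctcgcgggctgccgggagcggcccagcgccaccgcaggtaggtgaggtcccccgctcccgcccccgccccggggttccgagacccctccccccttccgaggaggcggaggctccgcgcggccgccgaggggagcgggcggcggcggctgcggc
IRX4 inner: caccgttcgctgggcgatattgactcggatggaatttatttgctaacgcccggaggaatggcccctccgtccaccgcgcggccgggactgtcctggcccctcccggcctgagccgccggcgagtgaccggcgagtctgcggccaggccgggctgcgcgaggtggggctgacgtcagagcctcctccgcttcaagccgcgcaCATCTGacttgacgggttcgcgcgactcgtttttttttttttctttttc
The outer and middle IRX4 promoters had a GC content of 77.6% and 79.2% and no match to the 10 motifs. The inner one had 64.0% and 1 match to CATCTG, which 12.2% of 35116 RefSeq promoters of that length held.

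The lists differed in length, and this bears on every count below. They held 55777 to 156179 peaks, with CM replicate 2 the shortest. The deposited lists give no read totals, so the depth is known only through the mean background of each library, which was 2.54 to 4.62 reads per position after extension. Of the window regions, 130 on chromosome 5 and 53 on chromosome 16 were in 1 list only, or 50.8% and 39.0%, against 40.7% of all merged regions. CM replicate 1 stood apart on chromosome 5, where 33 of its 93 regions (35.5%) were in no other list, against 17.0% of its regions in the genome. A missing peak means that the site did not pass the authors' q-value threshold of 0.01, not that it was closed. Promoter peaks of stage markers were checked: 5 of 5 pluripotency genes were called at hESC and 2 at CM, and NANOG had peaks in the hESC and MES lists only. Of 8 cardiomyocyte genes, 4 were called at hESC and 6 at CM, and MYH6 had peaks in CP replicate 2 and both CM lists. Other members did otherwise. MYH7 had no promoter peak, and NPPA only 1, in CM replicate 1. The fold over the local background at SOX2 was 4.42 and 4.90 at hESC and 6.01 and 6.19 in CM. At RYR2 it was 15.7 and 17.4 against 7.42 and 6.78, and at ACTN2 9.22 and 9.61 against 6.99 and 7.26. Of all protein-coding genes 72.3% had a promoter peak in all 8 lists. The CM call was also made for 5 of 5 mesoderm, 6 of 6 progenitor, 1 of 3 endoderm, 3 of 3 neural, 1 of 3 endothelial and 1 of 3 stromal genes.

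Every IRX gene had a peak within 1 kb of one of its annotated start sites in all 8 lists. So did 14438 of 19970 protein-coding genes (72.3%). Counted by gene, with a peak at any of its start sites, no IRX promoter was gained or lost from hESC to CM, although 2 promoter regions of IRX4 were lost. Here gained means a peak in both lists of the later stage and neither of the earlier, and lost the reverse. The background was 0.376% of protein-coding promoters gained and 2.6% lost. In bulk libraries, fewer cells with an open site and less opening per cell cannot be told apart. Values below are the fold of the pileup at the summit over the local background, as deposited.

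**Figure D1:**
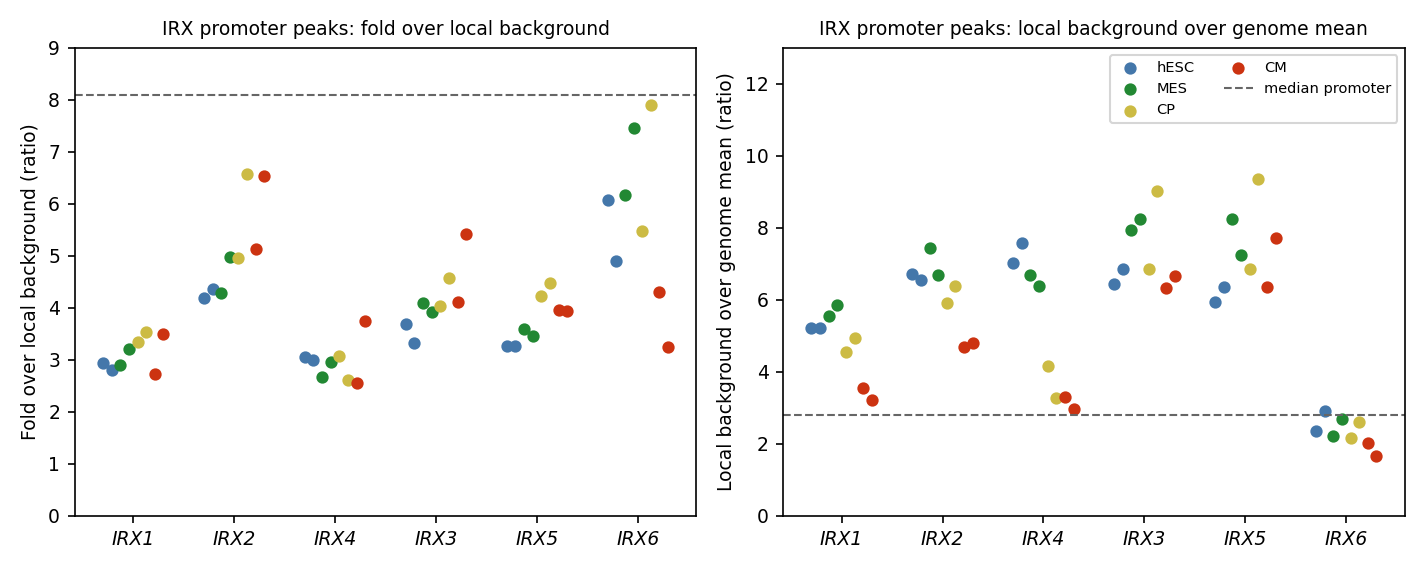
Highest promoter peak of each IRX gene in each of the 8 libraries (points, coloured by stage, replicate 1 left of replicate 2). The left axis is the fold over the local background and the right axis the local background over the library's genome mean, both ratios. The dashed line is the median over 14438 promoters with a peak in all lists. All points on the left lie below it. On the right all points of the other 5 genes lie above it, and those of IRX6 lie from 1.67 to 2.92.

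The gene that marks ventricular muscle, IRX4, had a promoter peak in every list, but not at the same start site. Its fold was 3.05 and 3.00 at hESC, 2.68 and 2.95 at MES, 3.08 and 2.62 at CP and 2.55 and 3.75 in CM. The stages overlapped, with the highest and the lowest value both in CM. At the inner start sites, A21 (chr5:1881170-1881588) and A22 (chr5:1881870-1882793) were called at hESC and MES, A22 also at CP, and neither had a peak in CM, so that both are among the lost regions below. The CM peaks lay near the outer start site, at A25 (chr5:1887314-1887542) in replicate 1 and at A24 (chr5:1886951-1887194) in replicate 2, with a −log10 q of 7.99. In CP replicate 2 the highest peak was also an outer one, A26 (chr5:1887763-1888009), with a −log10 q of 4.41, although A22 was present with a fold of 2.60. A24, A25 and A26 were each in 1 list only, so none counts as a called region, and the CM call of the gene rests on 2 different peaks.

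The local background at A22 was lower in CP than before. It was 7.01 and 7.59 times the genome mean for hESC, 6.70 and 6.38 for MES, and 4.15 and 3.76 for CP. The CP and earlier libraries did not overlap. At the outer CM peaks it was 3.29 and 2.97, but at other start sites. This region has no peak in CM and was not in the fit of regions with a peak in all lists, so the change of its background was not tested.

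IRX1 and IRX2, the other genes of the chromosome 5 cluster, had promoter peaks of unlike height. The fold at IRX1 was 2.94 and 2.80 at hESC, 2.90 and 3.20 at MES, 3.33 and 3.53 at CP and 2.73 and 3.49 in CM. At IRX2 it was 4.18 and 4.36 at hESC, 4.28 and 4.98 at MES, 4.96 and 6.57 at CP and 5.12 and 6.53 in CM. The IRX1 stages overlapped, while both CM values of IRX2 lay above both of hESC. The local background was lower in CM than in hESC at both genes, with 3.04 and 3.22 against 5.21 and 4.80 at the IRX1 region A238, and 4.69 and 4.79 against 6.71 and 6.54 at IRX2. The IRX1 peak of highest mean fold, A239 (chr5:3595595-3596130), was in 7 lists. In hESC replicate 1 and CM replicate 2 the highest IRX1 promoter peak was instead A238 (chr5:3594479-3594979), 0.853 kb from the start site.

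IRX3 and IRX5, the pair of the chromosome 16 cluster, followed similar courses. The fold at IRX3 was 3.68 and 3.31 at hESC, 4.09 and 3.92 at MES, 4.04 and 4.58 at CP and 4.11 and 5.43 in CM. At IRX5 it was 3.27 and 3.26 at hESC, 3.59 and 3.45 at MES, 4.23 and 4.48 at CP and 3.96 and 3.93 in CM. At both genes each later library was above both hESC libraries. IRX6 did otherwise, with 6.07 and 4.90 at hESC, 6.18 and 7.45 at MES, 5.47 and 7.90 at CP and 4.30 and 3.24 in CM. Its CM values were the lowest of the 8 libraries.

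Set against all promoters with a peak in all 8 lists, the IRX promoters had low folds, and 5 of the 6 had a high local background. The mean fold over 8 libraries was 2.96 ± 0.379 (SD, n = 8) at IRX4, 3.11 ± 0.313 at IRX1, 3.77 ± 0.452 at IRX5, 4.14 ± 0.633 at IRX3, 5.12 ± 0.952 at IRX2 and 5.69 ± 1.56 at IRX6. The median promoter had 8.08, and only 0.111% of promoters were lower than IRX4 and 0.208% lower than IRX1. IRX4 and IRX1 differed by less than their SDs, as did IRX5 and IRX3, and IRX2 and IRX6. The local background was above that of 99.2% of promoters at IRX3, 99.2% at IRX5, 97.7% at IRX2, 94.0% at IRX4 and 91.1% at IRX1, but 31.8% at IRX6. The summit pileup itself was above that of 78.3% of promoters at IRX2, 74.7% at IRX3 and 64.1% at IRX5, and of 13.7%, 12.3% and 11.1% at IRX4, IRX1 and IRX6. The fold divides pileup by local background, so a promoter in a broad accessible stretch has a lower fold at the same pileup. SDs here span the 4 stages, and these ranks are descriptions.

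The promoters most like IRX4 in their course, among 14437 with peaks in the same libraries, were CALM3, SLAIN2, PHLDA2, CARNMT1 and LSM14B, with Pearson correlations of log2 fold over 8 libraries of 0.956, 0.949, 0.936, 0.927 and 0.902. The libraries share depth and stage, and the 5 were the highest of that many. Chamber genes gave a mixed comparison. Of 5 ventricular genes, MYL3, HEY2 and HAND1 had promoter peaks in all lists and MYL2 and MYH7 in none. Of 7 atrial genes 4 were in all lists, and MYL7, an atrial light chain, was gained from hESC to CM. The other protein-coding genes that start in the windows, NDUFS6 and MRPL36 by IRX4 and the metalloprotease gene MMP2 by IRX6, had peaks in all lists, with folds of 4.20 to 5.62, 5.62 to 7.40 and 4.08 to 8.20. Non-coding genes start within 1 kb of 4 IRX genes: IRX2-DT 454 bp from IRX2, IRX4-AS1 and CTD-2194D22.4 390 and 96 bp from IRX4, and unnamed RNAs 251 bp from IRX3 and 277 bp from IRX5. A peak there cannot be assigned to one gene of such a pair.

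**Figure D2:**
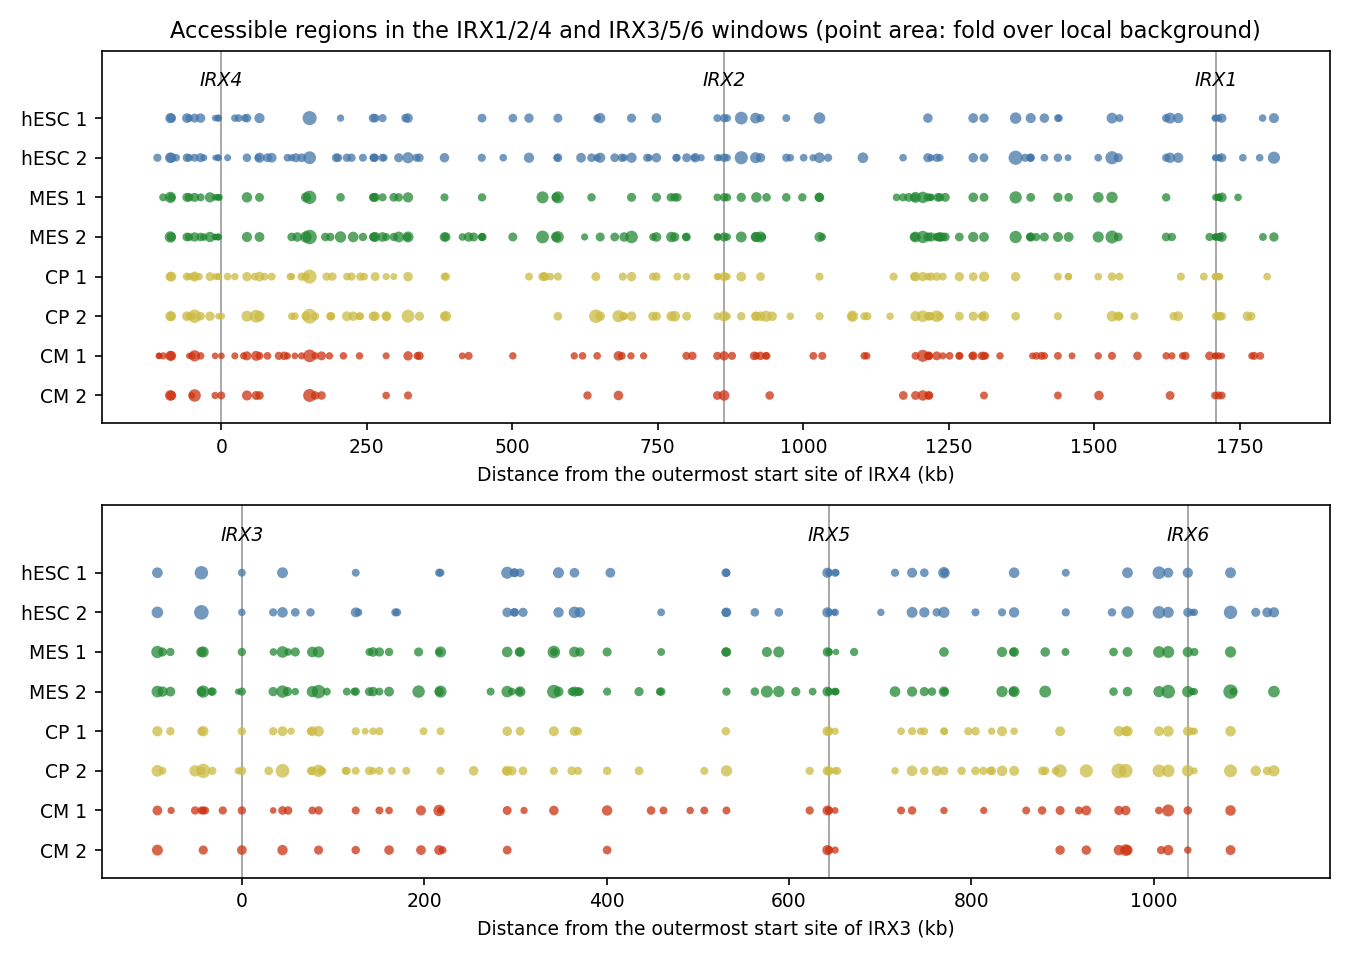
Position of every region in the IRX1/2/4 window (top) and the IRX3/5/6 window (bottom), by distance in kb from the outermost start site of IRX4 or IRX3, with 1 row per library coloured by stage. Point area is proportional to the fold over the local background, and vertical lines mark gene starts. CM replicate 2 has the fewest points, 31 and 24.

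More regions were called in mesoderm than at any other stage. On chromosome 5, 46, 58, 43 and 25 of 256 regions were called at hESC, MES, CP and CM. On chromosome 16 the counts were 25, 43, 32 and 21 of 136. MES had the highest count in both windows and CM the lowest. Over all merged regions the shares were 29.6%, 31.4%, 23.9% and 14.8%. In the windows they were 9.77% to 22.7% on chromosome 5 and 15.4% to 31.6% on chromosome 16, each from CM to MES. The order of the stages on chromosome 5 was that of the genome, and on chromosome 16 CP came before hESC. When every list was reduced to its 55777 strongest peaks by −log10 q, chromosome 5 had 19, 19, 19 and 17 of 85 regions called and chromosome 16 had 16, 21, 16 and 18 of 54, against 37.0%, 37.6%, 33.6% and 30.9% of all. MES then no longer led on chromosome 5.

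From hESC to MES, 14 regions were gained on chromosome 5 (5.47%) and 17 on chromosome 16 (12.5%), where 6.02% of all regions were. Losses were 4 and 3 regions, 1.56% and 2.21%, against 3.96%. Of the 17 gained on chromosome 16, 11 lay between IRX3 and IRX5, the interval that holds 71 of the 136 regions. Of the 31, 20 were called at MES and at no other stage, 5 at MES and CP, and 6 also at CM. Of those 20, 12 had a peak in at least 1 CP or CM list as well. These splits were not counted over all 17213 regions gained to MES, so they are not shown to be particular to the windows. With equal lists 10 and 9 regions were gained and 9 and 3 lost, so that on chromosome 5 gains and losses were then nearly even.

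The 3 mesoderm regions that follow were chosen after their values were seen. A102, 312 kb from the IRX2 start, had folds of 8.33 and 9.43 at MES and 4.27 in CP replicate 1, and no peak in the other 5 lists. B60 (chr16:54628708-54629230), in an exon of the non-coding gene ENSG00000283258, had 9.09 and 10.6 at MES, 5.81 and 3.96 at CP and 5.31 in CM replicate 1. B24 (chr16:54363778-54364304), 77.0 kb from IRX3, had 6.51 and 7.29 at MES, 5.79 and 4.69 at CP and 3.62 in CM replicate 1. None had a peak in hESC or in CM replicate 2. The T-box letters AGGTGT were in the summit window of 10 of the 31 mesoderm gains (32.3%), against 21.6% of all 17213 such gains and 13.2% of all regions. AGATAA was in 5 of them (16.1%), against 27.0% and 11.3%.

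From MES to CP, 4 and 5 regions were gained on chromosomes 5 and 16 (1.56% and 3.68%), against 2.14% of all, and 10 and 12 lost (3.91% and 8.82%), against 6.13%. All 5 gains of chromosome 16 lay between IRX5 and IRX6. From CP to CM, 2 and 3 were gained (0.781% and 2.21%), against 1.41%, and 20 and 8 lost (7.81% and 5.88%), against 6.34%. With equal lists 2 and 3 regions were gained and 4 and 2 lost from CP to CM, so that on chromosome 16 losses no longer outnumbered gains.

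From hESC to CM, 10 regions were gained on chromosome 5 (3.91%) and 9 on chromosome 16 (6.62%), against 3.15% of all merged regions. Losses numbered 20 (7.81%) and 8 (5.88%), against 13.5%. With equal lists the gains were 10 and 9 and the losses 7 and 7 of 85 and 54 regions, against 9.06% gained and 12.0% lost of all. Gains were then 11.8% and 16.7% and losses 8.24% on chromosome 5 and close to the share of all regions on chromosome 16, so that neither the larger count of losses on chromosome 5 nor the low share of losses on chromosome 16 held. Of the 19 gained regions 15 were intergenic, 3 intronic and 1 at the start of a non-coding gene. None lay nearer than 41.1 kb to an IRX start site, and the median distance was 161 kb. Of the 28 lost regions 22 were intergenic, and their median distance was also 161 kb. Of all 392 window regions 277 were intergenic, with a median of 138 kb. Progenitors already had many of the 19 gained regions: 8 were in both CP lists, 7 in CP replicate 2 only, none in CP replicate 1 only and 4 in neither. Over all 9001 gained regions these shares were 32.6%, 27.6%, 2.57% and 37.3%. Without CP replicate 2, therefore, only those 8 would be seen in progenitors.

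**Figure D3:**
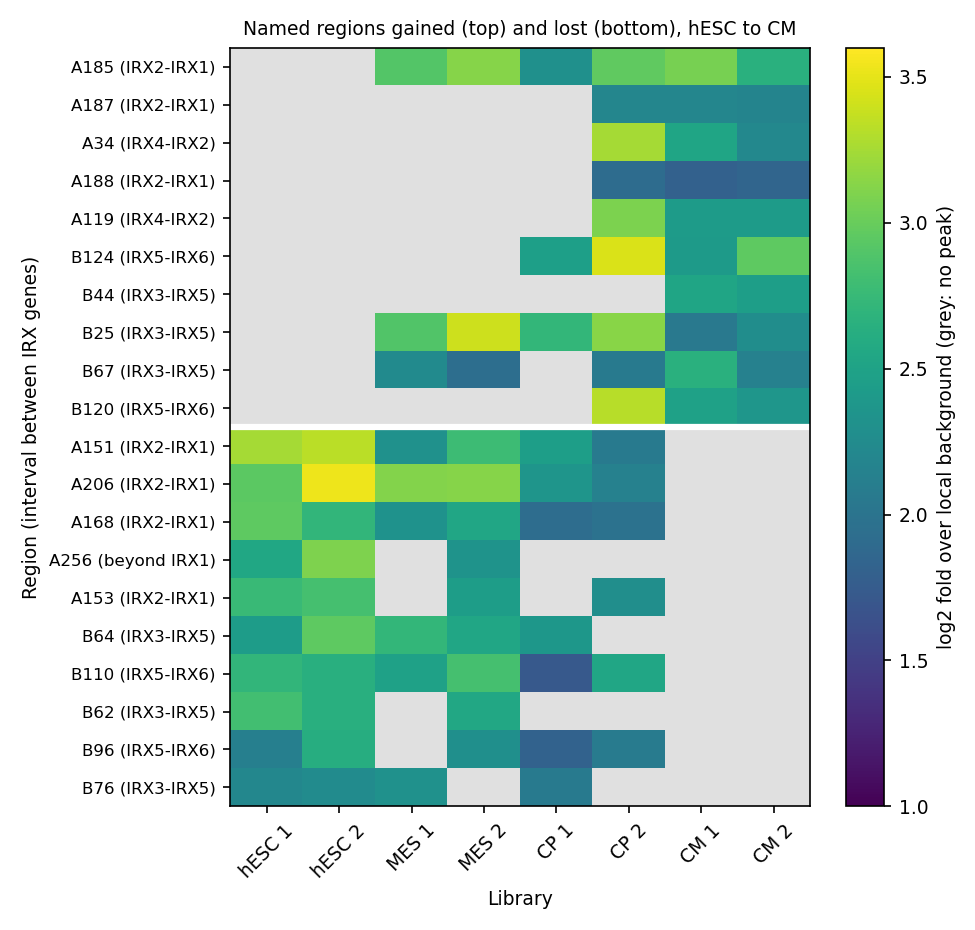
log2 fold over the local background in each library (columns) for the 10 named regions gained (top) and the 10 lost (bottom) from hESC to CM, with the interval between IRX genes in brackets. Grey marks no peak. The choice of regions fixes the grey hESC columns above and the grey CM columns below. The MES and CP columns were not used, and CP replicate 2 holds a peak in 9 of the 10 gained regions.

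The gained regions lay close together in places, which was noticed after their values were seen, and A184, B116 and B123 are named for it. Between IRX2 and IRX1, A184, A185, A187 and A188 fell within 24.1 kb, 328 to 352 kb from the IRX2 start. A187 and A188 were only 0.548 kb apart and in the same 3 lists, so they may not be separate sites. How often such runs occur among all gained regions was not counted. A185 had folds of 7.49 and 8.73 at MES, 4.94 and 7.81 at CP and 8.35 and 6.28 in CM. A187 (chr5:3102483-3102890) had 4.58 in CP replicate 2 and 4.57 and 4.50 in CM, and its neighbour A188 had 3.50 to 3.79 in the same lists. A184 had 6.85 and 6.56 at MES and 3.61 and 4.52 in CM. A184 and A185 thus had peaks from mesoderm on, and A187 and A188 only later.

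Between IRX5 and IRX6, B116, B120, B123 and B124 fell within 72.5 kb, ending 67.7 kb before the IRX6 start. B124 (chr16:55255878-55256538) had folds of 5.51 and 11.0 at CP and 5.32 and 7.77 in CM. B123 (chr16:55248514-55248899) had 6.38 and 12.6 at CP and 4.98 and 6.32 in CM. B116 had 5.64 and 9.93 at CP and 4.70 and 5.15 in CM. B120 had 10.0 in CP replicate 2 and 5.63 and 5.15 in CM. In all 4 the highest value was that of CP replicate 2, and none had a peak in hESC or MES.

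The remaining named gains were spread out. B44 (chr16:54482917-54483523), 196 kb from IRX3, had peaks in the CM lists alone, with folds of 5.78 and 5.49. B25, at the start of the non-coding gene LINC02140, was highest in MES, with 7.44 and 10.6, and lower in CM, with 4.15 and 4.82. B67 had 4.75 and 3.85 at MES, 4.18 in CP replicate 2 and 6.28 and 4.41 in CM. A34 and A119, between IRX4 and IRX2, had 9.54 and 8.47 in CP replicate 2, and 5.76 and 4.65 and 5.38 and 5.39 in CM. Of the 19 gained windows 9 held AGATAA (47.4%) and 8 held TGACAG (42.1%). Of all 9001 gained regions 30.5% and 33.1% did, and of all merged regions 11.3% and 16.8%. AGGTGT was in 1 of the 19 (5.26%), against 10.3% and 13.2%. Each remaining motif was in at most 4 of the 19.

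Of the 28 regions lost from hESC to CM, 11 were called at hESC only, 16 were also called at MES and 12 at CP. The same split was not counted over all 38602 lost regions, so it is not shown to be particular to the windows. A151 (chr5:2780351-2780969), 28.7 kb from IRX2, had folds of 9.48 and 10.1 at hESC, 4.97 and 6.88 at MES and 5.51 and 4.18 in CP. A206 (chr5:3251781-3252571) had 7.69 and 11.6 at hESC, 8.67 and 8.72 at MES and 5.13 and 4.41 in CP. A168 had 7.77 and 6.54 at hESC, and 5.00 and 5.79 in MES. The CP values of all 3 were below those of hESC. A153 and A256 were called at hESC only, with 6.77 and 7.12, and 5.84 and 8.54, both had a peak in MES replicate 2, and A153 had one in CP replicate 2.

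On chromosome 16, B64, in an intron of ENSG00000283258 between IRX3 and IRX5, had folds of 5.41 and 7.75 at hESC, 6.59 and 5.82 at MES and 5.19 in CP replicate 1. B110 had 6.54 and 6.23 at hESC, 5.62 and 7.11 at MES and 3.31 and 5.81 in CP. B62, B96 and B76 had 4.35 to 7.02 in hESC. The POU letters ATGCAAA were in 3 of the 28 lost windows (10.7%), against 7.88% of all lost regions, and AGATAA in 1 (3.57%), against 7.21%. Other motifs lay further from their share of all lost regions. AGGTGT was in 6 (21.4%, against 14.0%), and TGACAG and CAAGTG in 1 each (3.57%, against 13.5% and 10.9%). Each remaining motif was in at most 4 of the 28.

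Regions with a peak in all 8 lists allowed a test of their height. There were 12 on chromosome 5 and 9 on chromosome 16, and they were longer (median 869 bp, against 314 bp for all 392), richer in GC (64.8% against 56.1%) and nearer to an IRX start (median 44.2 against 138 kb). A linear model (limma) on log2 fold, centred on each library's median, was fitted to all 28115 such regions. From hESC to CM, 6 of the 21 IRX regions rose and none fell, where 6.12% of all regions rose and 5.75% fell (adjusted p below 0.05, Benjamini-Hochberg over all regions). Without centring, 141 of all 28115 rose and 1728 fell, and none of the 21 IRX regions passed. The median log2 change of the 21 was 0.18, and of all regions 0.10. No IRX region passed from hESC to MES, MES to CP or CP to CM in this limma fit of the fold. The smallest adjusted p of limma was 0.347, 0.143 and 0.0652, which does not show that the regions stayed equal. When missing peaks were set to the lowest fold of their list, 37, 24 and 8 of 145 IRX regions passed in these steps (25.5%, 16.6% and 5.52%), against 21.5%, 15.7% and 7.85% of all regions so fitted. Of all 28115 regions in all 8 lists, 183 rose and 48 fell in the first of these steps, 59 and 47 in the second, and 89 and 345 in the third.

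A13 (chr5:1840944-1841604) had the largest change. It is intergenic, 39.5 kb from the nearest IRX4 start site and about as far from the NDUFS6 start at chr5:1801407. It lies beyond the 3' end of IRX4 and was not assigned to either gene. Its fold was 4.69 and 3.67 at hESC, 4.74 and 5.06 at MES, 5.83 and 10.5 at CP and 7.34 and 9.04 in CM. All CP and CM libraries were above all earlier ones. The −log10 q was 8.46 and 6.77 in hESC and 57.9 and 46.3 in CM. The change from hESC to CM was 1.19 (SE 0.19) on the log2 scale, with an adjusted p of 0.00298 in limma. Measured as summit pileup over the library's genome mean it was 2.54 (SE 0.24), with an adjusted p of 9.21e-05, and the local background rose too, from 1.31 and 1.32 to 3.27 and 3.05 times the genome mean. A13 passed when any 1 library was left out, with log2 changes of 0.99 to 1.38. Without centring the adjusted p was 0.0522.

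The promoter regions of IRX2, IRX3 and IRX5 also rose from hESC to CM. IRX2 (A148, chr5:2750181-2752327) rose by 0.66 (SE 0.15, adjusted p = 0.0144 in limma), IRX3 (B13, chr16:54286078-54287462) by 0.66 (SE 0.16, adjusted p = 0.0225) and IRX5 (B85, chr16:54930401-54931361) by 0.49 (SE 0.15, adjusted p = 0.0481). The IRX6 promoter (B129, chr16:55323362-55325279) had a log2 change of -0.33 (SE 0.18, adjusted p = 0.237). A32 and A145, at non-coding genes 43.3 kb from IRX4 and 11.1 kb from IRX2, rose by 0.52 and 0.54 (adjusted p = 0.0425 and 0.0389 in limma). By summit pileup IRX3 and IRX5 passed, with 0.81 and 0.86, and IRX2, with 0.39 and an adjusted p of 0.114, did not. By the same measure A32 and A145 did not pass either (adjusted p = 0.157 and 0.566 in limma), and the local background of A145 fell by 0.46 on the log2 scale (adjusted p = 0.0134). Of these 5 regions none passed without centring or without either hESC library, or without CM replicate 2. IRX5, A32 and A145 also did not pass without either MES library or CM replicate 1.

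**Figure D4:**
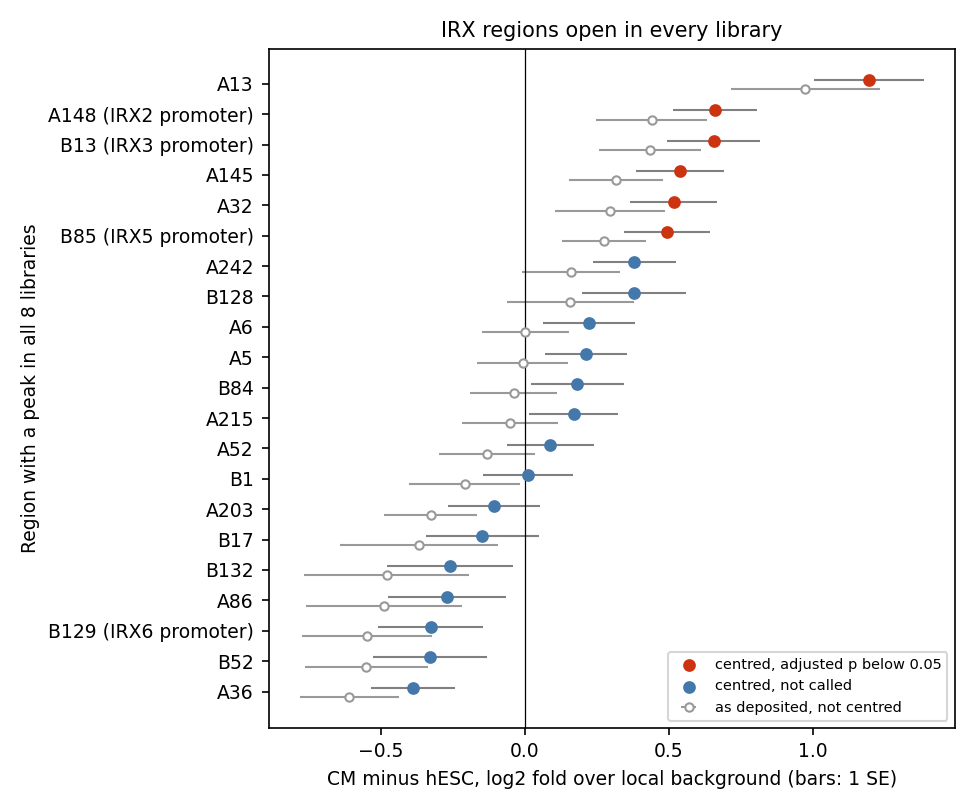
Change from hESC to CM in log2 fold over the local background for the 21 IRX regions with a peak in all 8 lists, with bars of 1 SE. Filled points are centred on each library's median, red where the adjusted p of limma is below 0.05, and open points are not centred. A13 lies at 1.19 centred and 0.97 not centred, and all open points lie left of the filled ones.

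Distal regions with a peak in all 8 lists are described by their range. A52 (chr5:2038331-2039612), 151 kb from IRX4 in an intron of ENSG00000248994, had 9.35 to 12.6, with a log2 change from hESC to CM of 0.09 (SE 0.15, adjusted p = 0.709 in limma). A86 had 3.85 to 9.52. On chromosome 16, B1, 91.1 kb beyond IRX3 but 43.8 kb from an annotated FTO start site, had 5.54 to 8.76. B128 had 5.81 to 10.7. B132, 18.3 kb from the MMP2 start and 45.1 kb from that of IRX6, had 5.65 to 11.9. None of these 5 passed the test from hESC to CM, which does not show that they stayed equal.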

How the data were processed

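The authors mapped paired reads to hg38 with BWA-MEM (0.7.13), discarded non-primary alignments and those of mapping quality 30 or less, took out duplicates (Picard), and ran MACS2 on every library by itself (version 2.1.0; q-value 0.01, shift -100, extension 200, no model). Versions are from the submitters' processing notes. The deposited lists give the fold over the local background (a ratio), −log10 p and −log10 q. The authors' replicates were not pooled. A deeper library passes the threshold at weaker sites.

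Peaks were merged over the 8 lists and annotated with GENCODE 44. Pileup and local background were recovered from fold and −log10 p, within 0.001 for 100% of peaks, and the lowest background of a list was taken as its genome mean. Library, not region, was the unit of replication. Fold at regions in all 8 lists was tested with limma 3.58.1 (R 4.3.3), and everything else was counted or described. On data simulated for CM against hESC over 28115 regions, 90.5% of 200 changed regions (log2 change 1.5) and 0.0143% of the others were called. The planted change was larger than that of any of the 21 IRX regions (at most 1.19). The share called at their size is therefore not known. It was added to centred values, with as many rises as falls, so the simulation does not test the effect of centring. Named regions were, per window, the 5 gained and the 5 lost of highest −log10 q, the 3 distal ones of highest fold in all lists, those that passed limma, and each promoter. Members and gene lists were chosen with earlier results of these data known. Python 3.11.15 was used. The promoters of 1 gene list are not reported here.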

Additional observations from a re-analysis of the deposited data

How the results depend on the processing

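The length of the shorter list limits all counts, since a region counts as called only if both lists of a stage hold it. Lists of similar mean background differed in length: CM replicate 1 had 4.57 reads and 92731 peaks, and hESC replicate 2 had 4.62 and 156117. Whether depth set the lengths was not tested. Counts are given in the order hESC, MES, CP and CM. Calling a stage by either list gave 114, 118, 125 and 99 regions on chromosome 5 and 54, 78, 83 and 50 on chromosome 16, against 58.0%, 58.1%, 50.1% and 35.0% of all regions, with 54 and 39 gained from hESC to MES, 65 and 30 gained and 80 and 34 lost from hESC to CM, against 21.3%, 14.3% and 37.2% of all. A −log10 q of at least 5 left 15 of 201 regions called at CM on chromosome 5 (7.46%, against 15.6% of all). It left 6 gained from hESC to CM there (2.99%, against 3.19%). Equal lists gave 19, 19 and 19 of 85 regions at hESC, MES and CP on chromosome 5. On chromosome 16 they gave 16, 21 and 16 of 54, against 37.0%, 37.6% and 33.6% of all. They also gave 9 gained to MES on chromosome 16 (16.7%, against 7.33%) and 7 lost to CM on chromosome 5 (8.24%, against 12.0%). Regions built from the parts that both replicates of a stage share numbered 90 and 63. Of these, 25 and 28 were gained to MES (27.8% and 44.4%), against 23.2% of all. Lost to CM were 34 and 15 (37.8% and 23.8%), against 41.4%. Windows with 50 kb flanks changed none of these counts by over 1.5 times. The causes were not tested. With each library left out in turn, so that its stage was called by 1 list, the ranges on chromosome 5 were 46 to 105, 58 to 105, 42 to 88 and 25 to 93 called, 14 to 43 gained to MES, 10 to 60 gained and 20 to 73 lost to CM. On chromosome 16 they were 25 to 47, 43 to 73, 32 to 68 and 21 to 47, then 17 to 35, 9 to 28 and 8 to 29. The windows then held 224 to 253 regions on chromosome 5 and 122 to 135 on chromosome 16. Over all regions the called shares were 30.1% to 54.6%, 31.9% to 54.2%, 24.3% to 41.9% and 15.1% to 31.7%. Gained to MES were 6.12% to 18.7% of all, gained to CM 3.21% to 12.0%, and lost to CM 13.8% to 33.9%.

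In limma, 6 of 21 IRX regions rose and 0 fell from hESC to CM (28.6%, against 11.9% of all regions passing either way). Without centring 0 rose, where 6.65% of all regions passed, and 3 rose after quantile normalization (14.3%, against 9.93%). With missing peaks set to the lowest fold, 20 rose and 19 fell of 145 (26.9%, against 26.6% of all). With each library left out, the log2 change of A13 was 0.99 to 1.38, of A148 0.64 to 0.81 and of B13 0.56 to 0.83. That of B85 was 0.46 to 0.65, of A32 0.46 to 0.63 and of A145 0.41 to 0.65. Without CM replicate 2, when 29 IRX regions were fitted, the changes ran from -1.24 to 1.20. Deviations of same-numbered libraries correlated by 0.13 to 0.19 among hESC, MES and CP and by -0.12 to 0.00013 with CM, so the numbers were not taken to pair all 4 stages. With the replicate number as a block 6 rose again from hESC to CM (28.6%, against 12.6% of all). As without it, 0 IRX regions passed from hESC to MES or from MES to CP. Other measures were added after the data were seen. By centred summit pileup 1, 1 and 0 of the 21 passed from hESC to MES, MES to CP and CP to CM. Of all regions 2.26%, 1.77% and 2.49% did. Without centring 0, 1 and 2 passed, against 2.03%, 1.55% and 13.8%. By centred local background 1, 1 and 0 passed, against 3.74%, 2.24% and 0.918%, and without centring none did. From hESC to CM, by summit pileup without centring 1 rose and 1 fell (B129, the IRX6 promoter), or 9.52%, against 16.7% of all regions. By local background 5 rose and 1 fell with centring (28.6%, against 18.6%). Without centring 1 rose and 3 fell by local background (19.0%, against 17.4%). By local background the log2 change of A32, A145 and A148 was -0.21, -0.46 and -0.28 centred and -0.42, -0.66 and -0.48 not centred, that of A86 was 0.44, and that of B13 not centred -0.034. By summit pileup not centred those of A32, A145 and A148 were -0.061, -0.26 and -0.012. Counted by gene, at any start site, all 6 had promoter peaks at every stage within 2.5 kb and with either list.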
